A study of Mus musculus with 9 samples.

Results

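The nuclear-encoded genes of the mitochondrial respiratory chain and of ATP synthase were followed through the cell classes of mouse liver and across induction of YAP. The members were taken by symbol. They are all genes whose symbol starts with Ndufa, Ndufb, Ndufc, Ndufs, Ndufv, Uqcr, Cox4i, Cox5, Cox6, Cox7, Cox8 or Atp5, together with Sdha, Sdhb, Sdhc, Sdhd and Cyc1, without pseudogene symbols. The rule found 93 of the 27998 genes of the count table. Placed by symbol, 36 of these fall in complex I, 4 in complex II, 9 in complex III, 20 in complex IV and 17 in complex V, and 7 are complex I assembly factors (Ndufaf genes). RefSeq names Atp5sl and Atp5s as Dmac2 and Dmac2l, so that their place in complex V rests on the symbol alone. The rule used no measured value.

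Liver cells other than purified hepatocytes were profiled by droplet-based 3′ single-cell RNA-seq in 9 libraries. All animals were C57BL/6 mice carrying ROSA26-rtTA-IRES-EGFP and received doxycycline food. The 2 WT libraries came from animals without the YAP transgene after 7 days of doxycycline. The YAP3d group (4 libraries) and the YAP7d group (3 libraries) carried tetYAP, a doxycycline-inducible constitutively active YAP, and were kept on doxycycline for 3 and 7 days. WT and YAP7d therefore shared the length of doxycycline, whereas YAP3d and WT differed in it as well as in the transgene. The reverse transactivator is switched on by Alb-Cre, which is active in hepatocytes, so that the non-hepatocyte classes described here were not the cells meant to express the transgene. Nothing in the labels says how the animals of a group relate to each other, so p-values measure the spread between these libraries.

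The respiratory chain passes electrons from NADH (through complex I) and succinate (through complex II, which is also an enzyme of the tricarboxylic acid cycle) to complex III, cytochrome c and complex IV, and complex V makes ATP from the proton gradient that complexes I, III and IV build. Most subunits are encoded in the nucleus, and a small core of complexes I, III, IV and V is encoded by mitochondrial DNA. Hepatocytes are rich in mitochondria, and some complex IV subunits have isoforms that are known from heart, skeletal muscle, lung or testis.

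The table held 63380159 unique molecular identifiers (UMIs, counts of captured transcripts), with 1314878 to 25056881 per library and a median of 3190.5 to 11471.5 per cell of a library. Clustering of 8527 cells without the member genes gave 25 clusters and 14 classes named from fixed markers, with 22 cells left unnamed, and 46 cell barcodes occurred in more than 1 library (93 cells). Every marker of the hepatocyte list (12 of 12) was raised in the hepatocyte-like cells, as were 14 of 14 endothelial markers in each endothelial-like cluster, and 10 of 10 in the plasmacytoid dendritic cell-like (pDC-like) cells. Other lists were incomplete. In the cluster with the fewest raised, 8 of 11 were raised in NK-cell-like, 8 of 10 in T-cell-like and 11 of 13 in macrophage-like cells. The numbers were 10 of 15 in monocyte-like and 6 of 10 in type 2 conventional dendritic-like cells. The pseudogene Gm10709 split the libraries, at 3.65 to 11.2 CPM (UMIs of the gene per 1000000 UMIs) in both WT libraries and YAP3d replicates 3 and 4, and at 347 to 611 CPM in YAP3d replicates 1 and 2 and all 3 YAP7d libraries. A second transcript, Gm42418, was at 241 to 381 CPM in the 3 libraries with over 1000 cells (WT replicate 2, YAP3d replicate 4 and YAP7d replicate 3) and at 3676 to 17487 CPM in the other 6. What these splits stand for is not given in the labels. For Gm10709, both WT libraries lie in the first set and all YAP7d libraries in the second, so that from these 2 groups alone this split and the transgene cannot be told apart.

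The members took 1611416 of all UMIs (2.54%). Complex IV held 29.9% of the member UMIs, complex I 28.4%, complex V 28%, complex III 11.1%, complex II 2.03% and the assembly factors 0.532%. Of the 93 members, 60 had more than 10000 UMIs, and the 10 highest held 29.2% of the member UMIs. UMI counts of a 3′ assay do not scale with transcript length, so CPM values of different genes are comparable without a correction for length. Cox4i1, which opens the list with 71843 UMIs, encodes the ubiquitous form of complex IV subunit 4, followed by Cox8a (54706), Atp5l (53014), Cox7c (47758) and Atp5e (45739). At the other end, 8 members had under 500 UMIs. Cox7b2 and Cox8c, testis isoforms of complex IV subunits, had 0 UMIs in 8527 cells, which allows a share of up to 0.0352% of cells with a UMI.

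The share of UMIs in members differed between cell classes, with ranges that overlapped for some of them. It was lowest in neutrophil-like cells (1.37% ± 0.23, SD, n = 4 libraries with at least 10 cells) and B-cell-like cells (1.66% ± 0.14, n = 9). It was intermediate in T-cell-like (2.15% ± 0.17, n = 9), macrophage-like (2.63% ± 0.24, n = 9) and endothelial-like cells (2.76% ± 0.11, n = 9). Hepatocyte-like cells were at 6.23% ± 0.62 (n = 6). The 6 hepatocyte-like values were 6.35%, 6.69% and 7.15% in YAP3d replicates 2, 3 and 4 and 5.83%, 5.85% and 5.49% in YAP7d replicates 1, 2 and 3. They rest on 11 to 28 cells each, and the WT libraries held 2 and 1 such cells, so that no comparison with WT was made. The YAP7d values were all below the YAP3d values, with no test for a share over chosen genes.

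**Figure D1:**
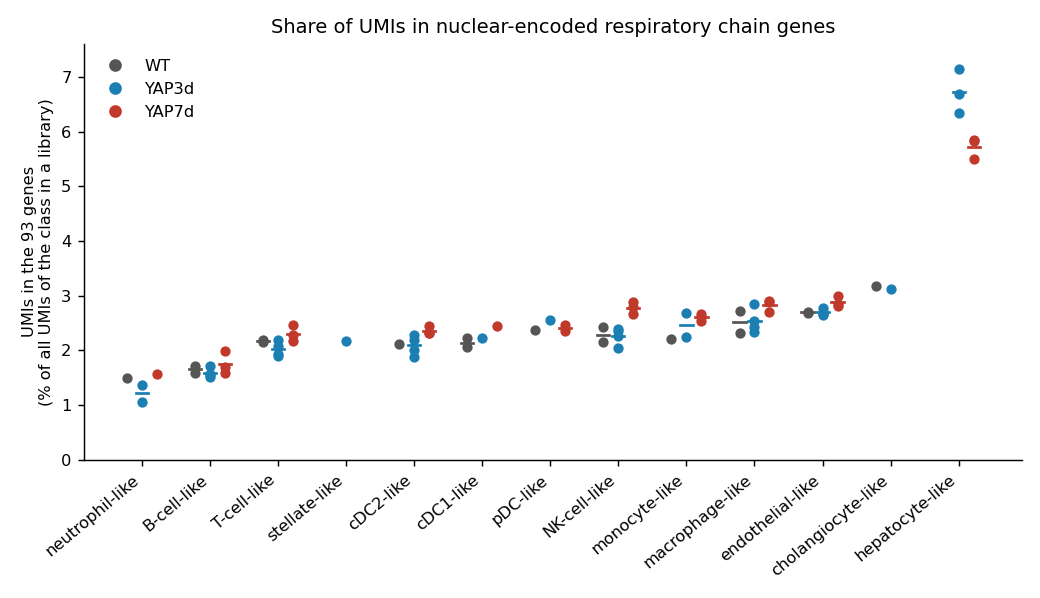
Share of all UMIs of a cell class that lie in the 93 members (vertical axis, percent), with 1 dot per library holding at least 10 cells of the class (grey WT, blue YAP3d, red YAP7d) and a bar at the group mean. Hepatocyte-like cells sit between 5.49% and 7.15%, and every other class lies at 3.17% or below.

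Within a library, the hepatocyte-like cells had the highest share in 6 of 6 libraries. T-cell-like cells were above B-cell-like cells in 9 of 9 libraries, endothelial-like and macrophage-like cells were each above T-cell-like cells in 9 of 9, and endothelial-like cells were above macrophage-like cells in 6 of 9. The last pair therefore did not keep its order across libraries, nor did T-cell-like and type 2 conventional dendritic-like (cDC2-like) cells (4 of 8 libraries), whereas the other pairs named here did. These are comparisons of classes from the same libraries and are given as a description.

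The mitochondrially encoded subunits did not follow the nuclear ones across classes. Their 13 genes took 5.02% ± 1.83 of the UMIs of macrophage-like cells, 3.62% ± 0.50 in endothelial-like, 3.26% ± 0.15 in B-cell-like, 2.65% ± 0.13 in T-cell-like (each n = 9) and 0.55% ± 0.75 in hepatocyte-like cells (n = 6). The ratio of mitochondrially encoded to nuclear member UMIs was 1.94 in macrophage-like, 1.97 in B-cell-like and 1.32 in endothelial-like cells, against 0.0923 in hepatocyte-like cells. YAP7d replicate 2 reached 2.08% in hepatocyte-like cells, while the other 5 libraries lay between 0.146% and 0.333%. Among the 115 hepatocyte-like cells the median share of all mitochondrially encoded genes was 0.125%, against 3.47% in endothelial-like cells. The protocol aimed at non-hepatocyte cells, and how far cell damage or loss of cytoplasm bears on these few hepatocyte-like cells was not tested.

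**Figure D2:**
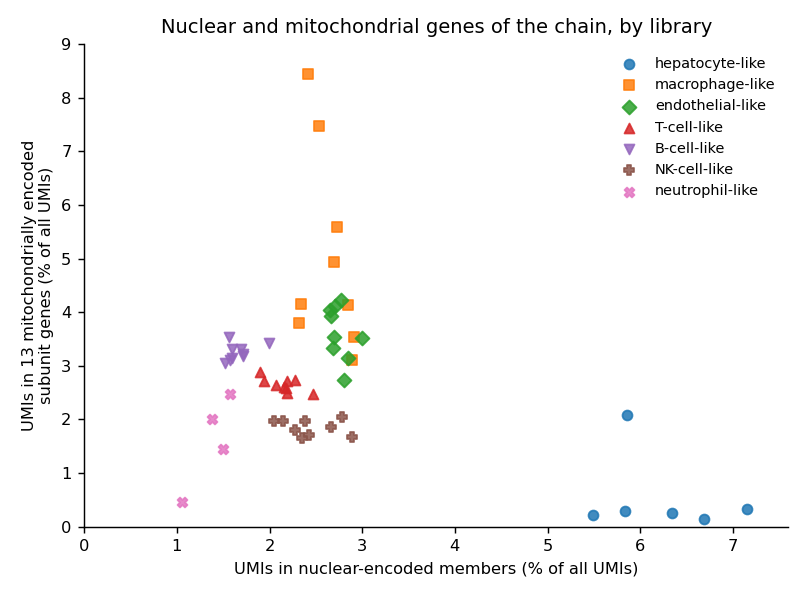
Share of UMIs in the nuclear-encoded members (horizontal axis, percent) against the share in 13 mitochondrially encoded subunit genes (vertical axis, percent), with 1 point per library and class. Hepatocyte-like cells lie to the right at 5.49% to 7.15% and low, at 0.146% to 2.08%, and macrophage-like cells spread upward to 8.44%.

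Most members took part in the high share of hepatocyte-like cells. Among 89 members with at least 20 UMIs, 78 had their highest mean CPM there over 12 classes with at least 2 libraries, with a median ratio of 1.78 to the next class. Of all 14191 genes with as many UMIs, 14.0% did. In 6 of 6 libraries, 73 of these members were higher in hepatocyte-like than in macrophage-like cells (9.89% of all such genes) and 70 were higher than in endothelial-like cells (8.83%).

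The distance from hepatocyte-like to the other classes was widest for Uqcrq, a small subunit of complex III. It stood at 2454 ± 108 CPM in hepatocyte-like cells (n = 6, 2308 to 2640) and at 444 ± 59.2 CPM in macrophage-like cells (n = 9, 347 to 515), the next class, a 5.52-fold ratio without overlap. Atp5g1, which encodes the c subunit of the ATP synthase ring, followed with 1610 ± 395 CPM against 447 ± 139 CPM in macrophage-like cells (3.60-fold). Ndufs3, a core subunit of complex I, was 2.90-fold and Uqcr10, of complex III, 2.85-fold above cholangiocyte-like cells, the next class for both, which were measured in 2 libraries.

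The 2 most abundant members of each complex showed how unequal the order was. In complex I, Ndufa2 was at 1035 ± 100 CPM in hepatocyte-like, 533 ± 61.0 in macrophage-like and 326 ± 30.5 CPM in B-cell-like cells, whereas Ndufa13 was as high in cholangiocyte-like (644 ± 26.7 CPM) as in hepatocyte-like cells (598 ± 168 CPM). In complex III, Uqcrb fell from 1720 ± 338 CPM in hepatocyte-like through 764 ± 88.0 in endothelial-like to 239 ± 37.0 CPM in B-cell-like cells. Its neighbour in rank, Uqcrh, stood at 671 ± 57.3 CPM in B-cell-like and 488 ± 51.7 CPM in endothelial-like cells, the opposite order. In complex IV, Cox4i1 spanned only 670 ± 99.9 CPM (neutrophil-like) to 1408 ± 139 CPM (hepatocyte-like), and monocyte-like cells (1342 ± 173 CPM) were within the spread of the hepatocyte-like cells. Cox8a was second to hepatocyte-like cells (1568 ± 248 CPM) in NK-cell-like cells (1108 ± 71.8 CPM). In complex V, Atp5l reached 984 ± 126 CPM in monocyte-like cells and Atp5e 865 ± 110 CPM in NK-cell-like cells, against 1692 ± 133 and 1794 ± 209 CPM in hepatocyte-like cells.

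All 4 subunits of complex II, the succinate dehydrogenase, were highest in hepatocyte-like cells. Sdhb, its iron-sulfur subunit, was at 604 ± 155 CPM there and at 241 ± 29.9 CPM in monocyte-like cells. The flavoprotein Sdha was at 274 ± 66.2 CPM, close to cholangiocyte-like cells (224 ± 41.7 CPM). The membrane anchors Sdhc and Sdhd were at 415 ± 27.8 and 338 ± 93.6 CPM, against 35.1 ± 15.4 and 56.5 ± 23.8 CPM in B-cell-like cells.

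Cox6a2, the heart and skeletal muscle isoform of a complex IV subunit, departed from this order. It lies at chr7:128205435-128206366 (GRCm38.p6). Of its 1751 UMIs, 1558 were in the 151 pDC-like cells, where 140 cells (92.7%) held at least 1 UMI. In T-cell-like cells, which give the background, 22 of 1754 cells (1.25%) held a UMI, and in endothelial-like cells 22 of 1947 (1.13%), at median depths of 4759.5 and 4370 UMIs against 8149 UMIs in pDC-like cells. The pDC-like levels were 1179 and 1057 CPM in WT, 498, 2026, 1410 and 1689 CPM in YAP3d and 1189, 1230 and 971 CPM in YAP7d, from 6, 17, 3, 6, 1, 57, 14, 7 and 40 cells. Every one of the 9 values was above every other class in its library, of which the highest was 49.9 CPM in the cDC2-like cells of YAP3d replicate 3. The WT, YAP3d and YAP7d values overlapped. Cox6a1, the form found in most tissues, was present beside it in the pDC-like cells at 650, 464, 362, 458, 470, 550.2, 490, 323 and 289 CPM in the same order of libraries. Cox6a2 was not among the genes used for clustering.

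**Figure D3:**
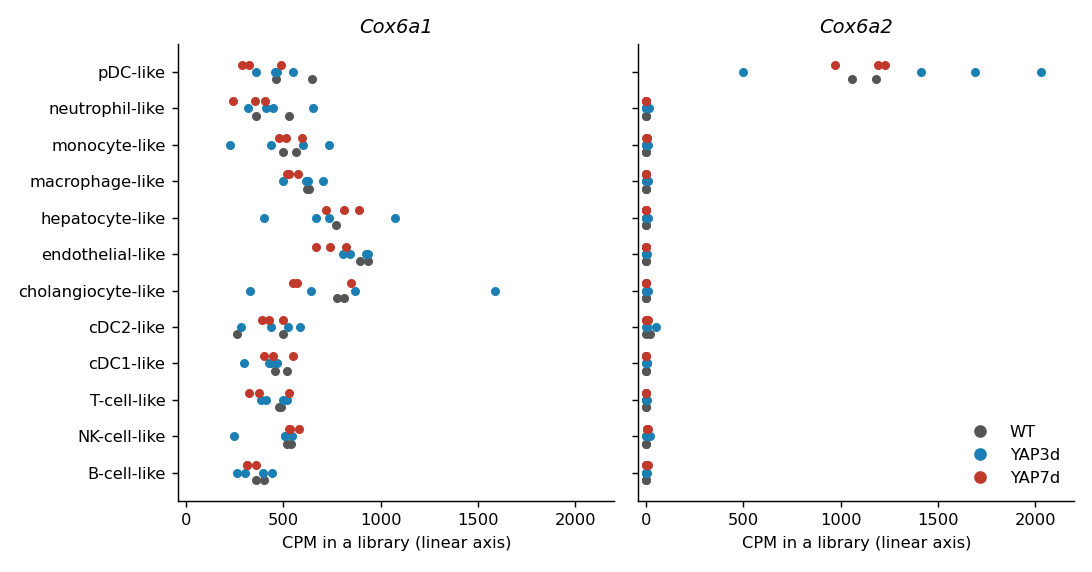
CPM of Cox6a1 (left) and Cox6a2 (right) in each class (rows) and library (dots, coloured by group), on linear axes, for every library with at least 1 cell of the class. Cox6a1 is present in all classes shown, and Cox6a2 lies between 498 and 2026 CPM in pDC-like cells and at 49.9 CPM or below elsewhere.

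The other tissue isoforms were rare. Cox4i2, the lung form of subunit 4, had 94 UMIs, of which 82 were in macrophage-like cells (63 of 1174 cells, 5.37%) and 1 in T-cell-like cells (1 of 1754 cells, 0.057%), at median depths of 12749.5 and 4759.5 UMIs. Cox6b2, the testis form of subunit 6b, was found in 73 of 313 cDC2-like cells (23.3%) and 14 of 115 hepatocyte-like cells (12.2%) against 6 of 1754 T-cell-like cells (0.342%), with library means of 26.5 ± 13.9 and 48.1 ± 56.2 CPM in the first 2 classes. It was also found in 4 of 23 stellate-like cells (17.4%), 15 of 157 cDC1-like (9.55%), 92 of 917 monocyte-like and 101 of 1174 macrophage-like cells. Median depths were 11210 UMIs in cDC2-like and 4365 in hepatocyte-like cells against 4759.5 in T-cell-like cells. Cox7a1, a muscle form, was found in 10 of 49 cholangiocyte-like cells (20.4%) and 11 of 115 hepatocyte-like cells (9.57%) against 3 of 1754 T-cell-like cells (0.171%). Most of its other UMIs were in macrophage-like cells (54 UMIs in 49 of 1174 cells, 4.17%), against 14 and 15 UMIs in the 2 classes before. Cox8b and Ndufa4l2 had 6 and 8 UMIs in all, too few to place. Their ubiquitous counterparts were abundant in every class. Cox7a2l was highest in T-cell-like (614 ± 119 CPM) and then in B-cell-like cells (589 ± 103 CPM), 2 classes that did not differ beyond their spread. Cox6a1 was highest in endothelial-like (841 ± 93.2 CPM) and then in cholangiocyte-like cells (822 ± 63.0 CPM), within the spread of the hepatocyte-like cells (772 ± 223 CPM), while Cox7a2 was highest in hepatocyte-like cells (1170 ± 146 CPM) and Ndufa4 likewise (2071 ± 173 CPM). Cox6b1 and Cox7b also peaked there, at 1550.4 ± 161 and 964 ± 211 CPM.

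The effect of YAP induction was tested in the 5 classes present with at least 10 cells in all 9 libraries, of which NK-cell-like cells were added after the data had been seen. Counts were summed per class and library and fitted over all genes with the quasi-likelihood test of edgeR, and levels are given below as CPM after scaling of libraries by the trimmed mean of M-values (TMM).

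In endothelial-like cells a subset of members was higher after 7 days of YAP induction than in WT. Of 83 members tested, 11 rose and 1 fell (adjusted p below 0.05). The background was 9.71% of 7467 genes called up and 8.73% called down, so that members rose at a rate near that of all genes and fell at a lower one, with no test of either. The median log2 fold change of the members was 0.15, against -0.04 for all genes tested. By complex, complex V gave 6 of the 11 rises among its 15 tested members, complex I 2 rises and 1 fall of 36, complex IV 2 rises of 12 and complex III 1 rise of 9. None of 4 complex II subunits and none of 7 assembly factors passed.

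The genes of the ATP synthase c subunit led the rises. Atp5g1, Atp5g2 and Atp5g3 encode the same mature protein with different import sequences. Atp5g1 was at 246 and 289 CPM in WT, 341, 359.6, 256 and 281 CPM in YAP3d and 658, 539 and 511 CPM in YAP7d. Every YAP7d library was above every other library, and the change from WT to YAP7d was 2.11-fold (log2 fold change 1.08 ± 0.19, SE, edgeR adjusted p = 0.00117). Atp5g2 was at 369 and 423 CPM in WT, 396, 446, 384 and 449 CPM in YAP3d and 695, 645 and 733 CPM in YAP7d, again without overlap (1.75-fold, adjusted p = 0.00243). Atp5g3 was at 239 and 227 CPM in WT, 156, 250.3, 204 and 248 CPM in YAP3d and 322, 239.6 and 265 CPM in YAP7d, so that YAP7d overlapped YAP3d and its lowest library was level with WT. The log2 fold change of 0.24 ± 0.21 did not pass (adjusted p = 0.475). Within the c subunit transcripts, Atp5g3 accordingly made up 26.1% ± 2.68 of the UMIs in 2 WT libraries, 22.7% ± 3.51 in the 4 of YAP3d and 17.9% ± 1.23 in the 3 of YAP7d (mean ± SD, no test).

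Beyond the c subunit, 4 other ATP synthase genes passed. Atp5b, the catalytic beta subunit, was at 481 and 543 CPM in WT, 591, 583, 498 and 540.4 CPM in YAP3d and 814, 714 and 925 CPM in YAP7d. The YAP7d values lay above all others (1.60-fold, adjusted p = 0.00869). Atp5a1, the alpha subunit that shares the catalytic head with it, Atp5d of the central stalk and Atp5f1 of the peripheral stalk rose 1.48- to 1.53-fold. The complex III gene that passed was Uqcrfs1, the Rieske iron-sulfur protein. It was at 111 and 121 CPM in WT, 118, 105, 124 and 112 CPM in YAP3d and 166, 175 and 234 CPM in YAP7d (1.69-fold, adjusted p = 0.0184). Complex IV gave Cox5a (1.54-fold) and Cox7b (1.56-fold), and Ndufa10 was among the calls of complex I. Ndufa10 was at 88.9 and 89.5 CPM in WT, 101, 72.8, 88.3 and 98.7 CPM in YAP3d and 152, 106 and 175 CPM in YAP7d (1.67-fold, adjusted p = 0.0363).

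Ndufa3, a small accessory subunit of complex I, moved the other way. It was at 479.6 and 526 CPM in WT, 473, 400.5, 458 and 486 CPM in YAP3d and 285, 263 and 331 CPM in YAP7d. The YAP7d libraries were all lower than the other 6, with a log2 fold change of -0.76 ± 0.17 (adjusted p = 0.00490). In 3 other classes (cells like macrophages, T cells and B cells) its YAP7d values were also all below its WT values, with log2 fold changes of -0.48, -0.41 and -0.48, but these did not pass (adjusted p = 0.355, 0.609 and 0.998). In NK-cell-like cells the WT and YAP7d values overlapped (log2 fold change -0.50, adjusted p = 0.255). The 5 classes come from the same libraries.

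**Figure D4:**
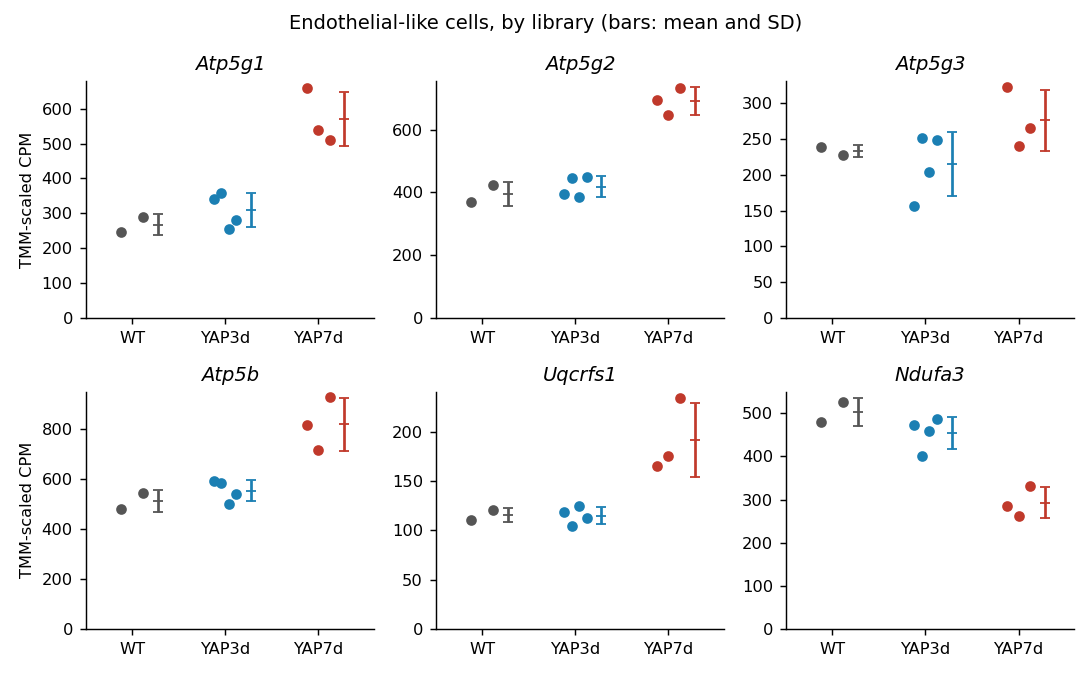
TMM-scaled CPM (vertical axes, linear and starting at 0) of 6 members in the endothelial-like cells of each library (dots), with mean and SD per group. For Atp5g1, Atp5g2, Atp5b and Uqcrfs1 the 3 YAP7d libraries lie above the other 6, for Ndufa3 below them, and for Atp5g3 the YAP3d and YAP7d libraries overlap.

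The sequences before the start sites of these oppositely moving genes are shown because many genes of this group are known to carry sites for the transcription factors NRF1, GABP and YY1. The sequences are those of RefSeq (GRCm38.p6, strand given by the sign), 5′ to 3′ towards the start and only as far as they lie outside the annotated gene. The starts used for Atp5g1 and Ndufa3 lie inside the annotated gene, so that their sequences stop short of the start, whereas that of Atp5g2 reaches it. Capitals mark the NRF1 core.
Atp5g1, chr11:96075695-96075881, minus strand: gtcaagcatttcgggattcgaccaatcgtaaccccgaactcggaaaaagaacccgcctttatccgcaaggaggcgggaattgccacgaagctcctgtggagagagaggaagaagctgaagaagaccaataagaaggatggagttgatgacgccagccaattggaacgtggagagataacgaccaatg
Atp5g2, chr15:102671048-102671297, minus strand: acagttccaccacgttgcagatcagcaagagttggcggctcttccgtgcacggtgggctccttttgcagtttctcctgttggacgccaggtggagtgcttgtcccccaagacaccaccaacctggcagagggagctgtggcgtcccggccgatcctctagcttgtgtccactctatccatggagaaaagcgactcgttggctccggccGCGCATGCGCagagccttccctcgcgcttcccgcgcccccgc
Ndufa3, chr7:3617123-3617346, plus strand: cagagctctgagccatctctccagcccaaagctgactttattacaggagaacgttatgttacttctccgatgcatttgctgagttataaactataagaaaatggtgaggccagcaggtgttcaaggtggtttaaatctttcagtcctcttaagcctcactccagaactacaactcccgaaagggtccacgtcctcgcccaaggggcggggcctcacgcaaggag

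Searched on both strands, the NRF1 core GCGCATGCG was found in Atp5g2 alone of these 3. It begins 42 bases before the start, and because it is nearly palindromic it was read on both strands over 1 run of bases. Windows from 250 bases before to 50 bases after a start were held for 73 of the 93 members and for 27025 genes in all. The NRF1 core occurred in 10 of the 73 members (13.7%, against 1.95% of all genes), the YY1 site AAGATGGCG in 7 (9.59%, against 1.64%) and the ETS or GABP site CCGGAAGT in 5 (6.85%, against 4.31%). At least 1 of the 3 was in 21 members (28.8%, against 7.48%). A match is a run of letters and not evidence of binding.

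**Figure D5:**
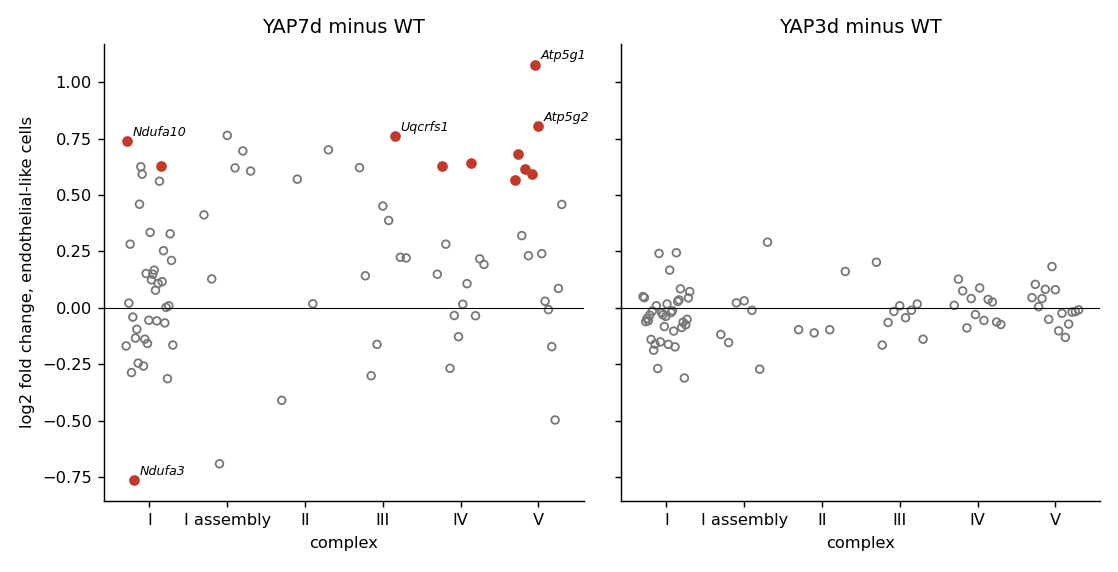
Log2 fold change of each tested member in endothelial-like cells (vertical axis) by complex (horizontal axis, points spread sideways within a complex), for YAP7d minus WT (left) and YAP3d minus WT (right), with filled red points for adjusted p below 0.05. The left panel runs from -0.76 to 1.08 with 12 filled points, and the right panel from -0.31 to 0.29 with none.

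After 3 days, no member differed from WT in endothelial-like cells. Of 83 members, 0 passed edgeR, 0 passed DESeq2 and 0 had an unadjusted p below 0.05, beside 0% of all genes called and 1.96% of them at the unadjusted threshold. The log2 fold changes lay between -0.31 and 0.29 with a median of -0.02. YAP7d against YAP3d, which uses the same 3 YAP7d libraries, called 15 members up and 1 down, beside 8.96% and 8.14% of all genes. All 12 genes called against WT were among these 16, a result that the shared libraries favour. Ndufa9, an accessory subunit of complex I, Ndufa8, Sdhb and Atp5o were added. Ndufa9 was at 87.6 and 93.1 CPM in WT, 79.9, 86.5, 46.9 and 86.9 CPM in YAP3d and 189, 119.8 and 121 CPM in YAP7d, with a log2 fold change of 0.90 ± 0.24 over YAP3d (adjusted p = 0.0197) and 0.62 ± 0.27 over WT (adjusted p = 0.122).

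Other genes of mitochondrial energy metabolism were counted in the same fit. Their counts for YAP7d over WT stand beside the same 9.71% of all genes up and 8.73% down, and no list was tested as a set. Of 10 tested genes for electron carriers, ATP synthase partners and nucleotide transport outside the rule, 6 rose (60.0%) and 0 fell, with a median log2 fold change of 0.72. The ATP synthase partners Usmg5, 2010107E04Rik and Atpif1 were not among the 6. Among them was Slc25a5, an ADP/ATP carrier, at 366 and 409.8 CPM in WT and 1058, 995 and 1008 CPM in YAP7d (log2 fold change 1.39 ± 0.20, adjusted p = 2.18e-04). Cycs, cytochrome c, was at 226 and 264 CPM in WT and 478, 355 and 364 CPM in YAP7d (adjusted p = 0.0167). Of 16 tricarboxylic acid cycle genes 3 rose (18.8%; Suclg2, Mdh2 and Idh3g, median of the list 0.48) and 0 fell. Of 74 mitochondrial ribosomal protein genes 9 rose (12.2%, near the share of all genes) and 0 fell (median 0.49). Of the 13 mitochondrially encoded subunits 2 fell (15.4%; mt-Nd2 and mt-Co3), 0 rose and 11 did not pass, with a median of -0.39, and their summed shares of UMIs overlapped (4.12% and 3.34% in WT, 3.53%, 2.74% and 3.14% in YAP7d). Of 15 complex IV assembly factors 2 fell (13.3%; Cox17 and Cox20) and 0 rose. Of 10 regulators of mitochondrial biogenesis 1 passed, Myc, at 4.87 and 7.06 CPM in WT and 69.0, 64.5 and 56.4 CPM in YAP7d.

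Several measurements moved with the endothelial-like result. Of 34 tested proliferation genes, 32 rose and 0 fell in YAP7d over WT, with a median log2 fold change of 3.92. A UMI of at least 1 of 10 core proliferation genes was found in 62.5%, 69.6% and 78.1% of the endothelial-like cells of YAP7d, against 3.26% and 11.8% in WT and 10.3% to 21.6% in YAP3d. The class held 24, 23 and 64 cells in YAP7d against 276 and 502 in WT, at a median of 7403.5 to 13759.5 UMIs per cell against 2384 and 4668.5. Of the YAP7d endothelial-like cells 84.7% fell in 1 cluster that held 0.13% of the WT cells. All 14 endothelial markers together were at 10845 to 11417 CPM in YAP7d, 24775 and 27724 CPM in WT and 22182 to 25586 CPM in YAP3d. The 12 hepatocyte markers, of a class that is high in these members, were at 94.8 to 138 CPM in YAP7d, 118 and 190.4 CPM in WT and 187 to 295 CPM in YAP3d, and of the 12, 6, 4 and 4 were at 0 in YAP7d replicates 1, 2 and 3. Other marker sums differed between WT and YAP7d without overlap. Those of erythroid cells were at 274 and 2184 CPM in WT and 31.6 to 49.0 CPM in YAP7d, and those of stellate or mural cells at 111 and 154 against 22.6 to 40.6 CPM (118 to 246 CPM in YAP3d). T cell markers were at 43.8 and 108 CPM in WT and 0 to 42.4 CPM in YAP7d. The sums of type 1 and type 2 conventional dendritic cell markers were higher in YAP7d, at 266 to 329 and 208 to 271 CPM, than in WT, at 206 to 214 and 102 to 189 CPM. Ribosomal protein genes took 22.2% to 24.8% of the UMIs in YAP7d, 12.8% and 13.4% in WT and 13.3% to 15.6% in YAP3d. The part of these measurements in the result was not tested.

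Cells without a UMI of the 10 core genes numbered 9, 7 and 14 in the YAP7d libraries, of which only replicate 3 met the minimum of 10 cells. With 1 YAP7d library in that fit, Atp5g1 had a log2 fold change of 0.81 over WT. The calls of that fit cannot be set against those of 3 libraries and are not given. With a term for the libraries with Gm10709, 0 members passed for YAP7d against WT in place of 12, with Atp5g1 at 0.70 and Atp5g2 at 0.80. For YAP7d against YAP3d, the 16 calls became 2 with the Gm10709 term, 8 without YAP3d replicate 3 and 9 without YAP7d replicate 3. For YAP7d against WT, 7 members were called without YAP7d replicate 3. Leaving out either WT library left 1 library in that group, with no spread of its own, so that the calls of those fits are not given. The share of UMIs in members was 2.94%, 2.90% and 2.85% in YAP7d endothelial-like cells without core proliferation UMIs and 2.72% and 2.68% in such cells of WT, and 2.99%, 2.80% and 2.85% against 2.71% and 2.68% in all cells of the class.

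In macrophage-like cells no member passed edgeR in any comparison. For YAP7d against WT, 0 of 80 members were called by edgeR and 1 by DESeq2, and 1.14% of all 6918 genes were called. Without adjustment 11 members (10 up) and 16.9% of all genes had p below 0.05. The median log2 fold change was 0.24, against 0.02 for all genes. Atp5g1 was at 279.5 and 311 CPM in WT, 390.1, 628, 452 and 328 CPM in YAP3d and 627, 482 and 624 CPM in YAP7d, so that the YAP3d and YAP7d values overlapped and the difference from WT did not pass (adjusted p = 0.125). For YAP3d against WT 0 members passed (0 by DESeq2), beside 0% of all genes, and 0 had an unadjusted p below 0.05, beside 4.09% of all genes. For YAP7d against YAP3d 0 passed (0 by DESeq2), beside 0.289%, and 12 had an unadjusted p below 0.05, all higher in YAP7d, beside 6.04% of all genes higher at that threshold. Without YAP3d replicate 2, 3 members passed for YAP7d against WT and 5 for YAP7d against YAP3d. The shares of UMIs in members were 2.73% and 2.32% in WT, 2.54%, 2.85%, 2.42% and 2.34% in YAP3d and 2.91%, 2.70% and 2.89% in YAP7d, and the WT and YAP7d values overlapped. Of the WT macrophage-like cells 55.7% were in a cluster that held none of the YAP7d cells, and cells with a core proliferation UMI made up 8.82% and 22.2% in WT and 74.5% to 85.8% in YAP7d. Of 43 proliferation genes tested, 8 rose. Endothelial markers in this class were at 891 and 1216 CPM in WT and 242 to 279 CPM in YAP7d, and those of stellate or mural cells at 72.2 and 112 CPM in WT and at most 63.8 CPM in YAP7d. The marker sums of 5 other lists were also lower in YAP7d than in WT without overlap, at 56.2 and 72.3 against 8.86 to 46.8 CPM for T cells, 168 and 251 against 132 to 162 CPM for B cells, 112 and 143 against 37.5 to 88.1 CPM for cDC2, 428 and 497 against at most 419 CPM for cDC1 and 233 and 237 against 191 to 231 CPM for plasma cells. Their part in these values was not tested.

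T-cell-like cells likewise gave 0 called of 82 members in each comparison, by edgeR and by DESeq2. The counts at an unadjusted p below 0.05 were 6 for YAP7d against WT, beside 8.65% of all 6568 genes, and 1 for YAP3d against WT, beside 1.45%. At that threshold 27 members passed, all higher in YAP7d, for YAP7d against YAP3d, where the median log2 fold change was 0.27 and 8.01% of all genes passed with higher values. At the adjusted threshold all genes were called at 0%, 0% and 0.974% in these 3 comparisons, and 12 of 37 proliferation genes rose in the last. The shares of UMIs in members were 2.19% and 2.16% in WT, 2.07%, 2.19%, 1.90% and 1.94% in YAP3d and 2.47%, 2.17% and 2.28% in YAP7d, and the 3 groups overlapped. The make-up of the class moved with the groups. One of its clusters held 11.69% of the cells in WT, 12.28% in YAP3d and 35.31% in YAP7d, another 49.57%, 47.68% and 23.45%, and cells with a core proliferation UMI made up 7.55% and 9.55% in WT, at most 26.3% in YAP3d and 34.4% to 39.3% in YAP7d. Monocyte markers were at 1929 to 2408 CPM in YAP7d against 1163 to 1693 CPM in the other 6 libraries, macrophage markers at 291 to 651 against 57.1 to 227 CPM, and endothelial markers at 88.7 to 121 against 129 to 876 CPM. The T cell markers themselves were at 3641 to 3928 CPM in YAP7d and 4234 to 5163 CPM in the other 6. Markers of NK cells and type 1 innate lymphoid cells (ILC1), a joint list, were at 253 to 4453 CPM in YAP3d. They were at 476 and 506 CPM in WT and 232 to 346 CPM in YAP7d. A further cluster of the class, of 23 cells, lay in YAP3d alone (2.54% of its cells). Their part in these values was not tested.

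In NK-cell-like cells a subset of members was higher in YAP7d than in YAP3d. Of 77 members tested 11 rose and 0 fell, beside 8.02% of 4002 genes up and 5.6% down, with no test of either rate. DESeq2 called 8, all up. The median log2 fold change was 0.40, against -0.05 for all genes. Complex V gave 4 of the rises among 15 tested members, complex I 3 of 36, complex IV 3 of 12 and complex III 1 of 9.

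All 3 genes of the c subunit were among them. Atp5g1 was at 319 and 284 CPM in WT, 206, 335, 189 and 295 CPM in YAP3d and 559, 479.8 and 500.2 CPM in YAP7d (1.89-fold over YAP3d, log2 fold change 0.92 ± 0.20, SE, edgeR adjusted p = 0.00758). Atp5g2 was at 399 and 476 CPM in WT, 228, 435, 399 and 471 CPM in YAP3d and 656, 725 and 951 CPM in YAP7d (1.97-fold, adjusted p = 0.00763). Atp5g3 was at 216 and 279 CPM in WT, 149, 210.1, 105 and 255 CPM in YAP3d and 386, 359.9 and 458 CPM in YAP7d (2.02-fold, adjusted p = 0.00884). For each of the 3 genes the YAP7d libraries lay above the other 6. Ndufab1, the acyl carrier protein of complex I, was at 42.1 to 155 CPM in YAP3d and 184 to 247 CPM in YAP7d, and Ndufb2, an accessory subunit, at 63.1 to 126 and 178 to 233 CPM. The remaining 6 calls, for Atp5o, Cox5a, Cox5b, Ndufa4, Ndufb7 and Uqcr10, were 1.55- to 1.77-fold.

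Against WT the same YAP7d libraries gave 0 called members by edgeR and 0 by DESeq2, beside 6.72% of all genes, with a median of 0.36. At an unadjusted p below 0.05 there were 22, all higher in YAP7d, beside 11.7% of all genes higher. For Atp5g1 the adjusted p was 0.0655 (log2 fold change 0.79). For YAP3d against WT 0 members passed (0 by DESeq2), beside 0% of all genes, and 0 passed unadjusted, beside 2.02%. The shares of UMIs in members were 2.15% and 2.43% in WT, 2.27%, 2.35%, 2.05% and 2.38% in YAP3d and 2.89%, 2.66% and 2.78% in YAP7d, so that the YAP7d libraries lay above the other 6, with no test.

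Other measurements moved with the NK-cell-like values. Of 23 proliferation genes 19 rose from YAP3d to YAP7d, and cells with a core proliferation UMI made up at most 16.9% in WT, 8.70% to 14.3% in YAP3d and 41.9% to 58.5% in YAP7d. The median depth was 3097 to 4567 UMIs in WT and YAP3d and 5606 to 8517.5 in YAP7d. Of the 2 clusters of the class, 1 held 47.22% of the WT, 46.15% of the YAP3d and 87.21% of the YAP7d cells. T cell markers were at 213 to 475 CPM in YAP7d against 900.2 to 2148 CPM in the other 6 libraries, cDC2 markers at 295 to 572 against 1084 to 3128 CPM, cholangiocyte markers at 9.08 to 16.4 against 23.9 to 54.6 CPM and macrophage markers at 218 to 643 against 61.4 to 186 CPM. The cDC2 list holds Cd7, which was among the 10 top genes of the other NK-cell-like cluster, so that this sum includes a gene of the class itself. The markers of the class, a joint list for NK cells and ILC1, overlapped, at 11742 to 14693 CPM in YAP7d and 11296 to 15795 CPM in the others. The list does not tell these 2 cell types apart. Of its 11 markers, 11 were raised in the cluster that held most YAP7d cells and 8 in the other. Ribosomal protein genes took 26.8% to 31.6% of the UMIs in YAP7d and 19.9% to 23.2% in the others. Their part in the result was not tested. In cells without a core proliferation UMI 1 member passed for YAP7d against YAP3d in place of 11, in cells of at least 4000 UMIs 2 passed, with the Gm10709 term 1, and without YAP3d replicate 1, 5. The class held 14 to 142 cells in a library.

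In B-cell-like cells 0 of 72 members passed either tool in the 3 comparisons, beside 0.0448%, 0% and 0% of 2233 genes (YAP7d against WT, YAP3d against WT and YAP7d against YAP3d). The counts at an unadjusted p below 0.05 were 0, 0 and 3, beside 4.34%, 0.896% and 6.63% of all genes. In this class cDC2 markers were at 1064 to 1573 CPM in YAP7d against 1703 to 2300.0 CPM in the other 6 libraries and macrophage markers at 258 to 706 against 36.9 to 241 CPM, and their part in these values was not tested. The cDC2 list holds H2-DMb2, which was among the 10 top genes of the B-cell-like cluster, so that this sum includes a gene of the class itself.

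A call in endothelial-like cells and none in another class does not show a difference between classes, so the difference itself was fitted. Between endothelial-like and macrophage-like cells, the change from WT to YAP7d differed for 0 of 84 members by edgeR (3 at an unadjusted p below 0.05), beside 0.881% of 8630 genes. For Atp5g1 the difference was 0.08 on the log2 scale (adjusted p = 0.973). Against T-cell-like cells 0 of 84 members passed (6 at an unadjusted p below 0.05), beside 2.56% of 8554 genes. The nearest was Atp5g1, whose log2 fold change was 0.89 ± 0.25 higher in endothelial-like cells (adjusted p = 0.0626). DESeq2 was not run on these differences, and the difference between NK-cell-like and other classes was not fitted.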

How the data were processed

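Liver cells of 9 libraries were measured. Per the study's methods, the authors made libraries with the Chromium Single Cell 3′ chemistry, aligned reads to mm10 and counted UMIs with Cell Ranger, and merged replicates in Seurat 2, which the submitters' processing notes name too. The deposited counts are whole UMI counts per gene and cell, not normalized, and the cell names give the library. Cell Ranger counts reads assigned to 1 gene, so reads that match a gene and an annotated copy of it equally can be lost, and the values of genes with near-identical copies are uncertain.

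Cells with under 200 genes were left out (35 of 8562 cells). Counts were scaled to 10000 per cell (scanpy 1.11.5) and clustered at Leiden resolution 1 on 2442 variable genes, without the members, the gene lists, mitochondrial and ribosomal genes and genes correlated with the cell cycle. Clusters were named from 170 markers (167 in the table) when at least 3 were raised. Scrublet called 60 doublets (0.704%), which were kept. The members, markers and lists were chosen with earlier results of these data known.

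Counts were summed per library and class with at least 10 cells, filtered with filterByExpr, scaled by TMM and fitted for the 3 groups together with glmQLFit and glmQLFTest in edgeR 4.0.16 (R 4.3.3). P-values were adjusted by the Benjamini-Hochberg method over all genes tested, at a threshold of 0.05. DESeq2 1.42.0 was the second tool. NK-cell-like cells were fitted in the same way after the data had been seen. Differences between classes used an interaction term with library as a block and TMM within each class. The scripts were tested on simulated data. Libraries held 1314878 to 25056881 UMIs, and libraries with few cells of a class limit its precision. Values of classes against each other are plain CPM without TMM. Genes named are at most the 5 largest rises and falls per class and comparison with a mean of at least 50 CPM and no overlap, the 2 highest members of each complex, the 5 with the largest ratio of the highest to the next class, and the paralogous and complex II subunits. Other called members and genes of the other lists were named after their values were seen, and 1 called member is not reported here by name. Alternatives changed the scaling, filter, tool, cells, classes, covariates and libraries. Promoter windows and positions are those of RefSeq (GRCm38.p6).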

Additional observations from a re-analysis of the deposited data

Results flagged for a closer look

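Among the 4 YAP3d libraries, Ndufb2, an accessory subunit of complex I, stood apart in the NK-cell-like cells of YAP3d replicate 3, at 63.1 CPM against 117, 125 and 126 CPM in the other 3 (gap over range 0.865, above Dixon's 95% critical value). That library held 14 NK-cell-like cells. Of 17 sets of 4 libraries examined this was the 1 that passed, and chance flags about 1 in 20.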

How the results depend on the processing

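Alternatives are given as numbers of members called (edgeR or the tool named), against 12 for YAP7d minus WT and 16 for YAP7d minus YAP3d in endothelial-like cells, 11 for YAP7d minus YAP3d in NK-cell-like cells and 0 in the other comparisons. In endothelial-like cells YAP7d minus WT gave 5 without the filter on low counts, 0 with a term for libraries with Gm10709 and 19 with a term for libraries of over 1000 cells, which are also those with low Gm42418. YAP7d minus YAP3d gave 2 with the Gm10709 term. Cells without core proliferation UMIs left 1 YAP7d library of this class with at least 10 cells, so that the calls of those fits are not given. In macrophage-like cells YAP7d minus WT gave 1 with DESeq2, 3 without the filter and 4 with only the 2 groups compared, and YAP7d minus YAP3d gave 1 without the filter. In T-cell-like cells YAP7d minus WT gave 1 and YAP7d minus YAP3d 8 with the term for libraries of over 1000 cells, and YAP7d minus YAP3d gave 1 without the filter. In NK-cell-like cells YAP7d minus WT gave 1 with classes at Leiden resolution 2, 2 with RLE size factors and 11 with the term for libraries of over 1000 cells. YAP7d minus YAP3d gave 2 in cells of at least 4000 UMIs, 1 in cells without core proliferation UMIs, 1 with the Gm10709 term, 23 with the term for libraries of over 1000 cells and 6 with total counts only, which moved the median of all genes from -0.05 to -0.18. The cause of these shifts was not tested. All values for NK-cell-like cells, the terms for Gm10709 and library size and the cells without core proliferation UMIs were chosen after seeing the data. Cells without any UMI of the whole proliferation list left no YAP7d endothelial-like cells to test.

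The replicate numbers were not taken to pair the libraries, since the correlations of deviations between same-numbered libraries were not all above 0.1 in any class. They ran from -0.264 to 0.196 in endothelial-like cells (3 of 7 pairs above 0.1), -0.336 to 0.359 in T-cell-like (4 of 7), -0.127 to 0.191 in NK-cell-like (4 of 7), -0.389 to 0.33 in B-cell-like (3 of 7) and -0.207 to 0.096 in macrophage-like cells (0 of 7). With the replicate number as a block, 7 members were called for YAP7d minus WT and 10 for YAP7d minus YAP3d in endothelial-like cells, and 1 and 8 in NK-cell-like cells.

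Leaving out 1 library at a time gave 8 to 16 calls for YAP7d minus YAP3d in endothelial-like cells, lowest without YAP3d replicate 3. For the same comparison the range was 0 to 5 in macrophage-like cells and 5 to 16 in NK-cell-like cells (lowest without YAP3d replicate 1). For YAP7d minus WT and for the differences between classes, omitting a WT library leaves 1 in that group, so that ranges of calls are not given. The log2 fold change of Atp5g1 in endothelial-like cells for YAP7d minus WT was 0.70 to 1.22 over the alternatives that could be run. It did not pass with the Gm10709 term (0.70). In cells without core proliferation UMIs, where YAP7d was 1 library, it was 0.81.

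With mitochondrial and ribosomal protein genes out of the denominator, the mean share of UMIs in members was 3.10%, 3.28% and 3.80% in macrophage-like cells (WT, YAP3d, YAP7d), 3.24%, 3.30% and 3.93% in endothelial-like, 3.43%, 3.15% and 3.72% in T-cell-like, 2.98%, 2.96% and 4.01% in NK-cell-like and 2.63%, 2.47% and 2.85% in B-cell-like cells. In cells without a UMI of the proliferation list it was 1.96% in macrophage-like cells of YAP7d, 2.65% and 2.57% in endothelial-like cells of WT and YAP3d, and 1.93% and 1.99% in T-cell-like cells of WT and YAP7d. Without core proliferation UMIs it was 2.53% in macrophage-like cells of YAP7d, 2.62% in NK-cell-like cells of YAP7d and 2.11% and 2.08% in T-cell-like cells of WT and YAP7d. In cells of at least 4000 UMIs it was 2.27% in T-cell-like cells of WT and 1.78%, 1.67% and 1.995% in B-cell-like cells of WT, YAP3d and YAP7d. A stricter choice of cells, with 500 genes or more and no more than 10% mitochondrial UMIs, gave 2.72% in endothelial-like cells of WT. Classes of few cells, such as endothelial-like cells of YAP7d with 23 to 64 cells a library, limit what can be called.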
